A study of Mus musculus with 18 samples.

Results

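The matrix metalloproteinases (MMPs), the ADAM and ADAMTS metalloproteinases, the ADAMTS-like proteins and the tissue inhibitors of metalloproteinases (TIMPs) were followed in macrophages sorted from the lungs of mice that had inhaled lipopolysaccharide (LPS). The members were every protein-coding gene of the deposited count table whose symbol is Mmp, Adam, Adamts or Adamtsl followed by a number, or Timp1 to Timp4. This gave 60 of 21254 genes, made up of 18 Mmp, 19 Adam, 14 Adamts, 5 Adamtsl and 4 Timp genes. Of these, 44 passed the filter on low counts and were tested, and 16 did not.

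Both genotypes carried the Cx3cr1tm1.1(cre)Jung/J allele, which puts the Cre recombinase under the promoter of the fractalkine receptor gene. The WT mice had intact Ezrin alleles, and the knockout mice (Ezr-KOm) were B6 mice whose Ezrin alleles were both flanked by loxP sites, so that Ezr is deleted where the Cx3cr1 promoter has been active. That promoter is also weakly active in other leukocytes, among them conventional dendritic cells. Mice were 3 to 5 months old and of both sexes. They inhaled nebulized Pseudomonas aeruginosa LPS (12.5 mg in 5 ml for 15 min), and lungs were taken 24 h later. CD45+CD11b+ cells were sorted as monocyte-derived macrophages (moMs, MHC-II-Ly6C+), transitional interstitial macrophages (tnsIMs, MHC-II+Ly6C+, called trIM in the sample labels) and mature interstitial macrophages (matIMs, MHC-II+Ly6C-). Each of the 6 groups had 3 libraries, from 3 mice per genotype, and no group without LPS was analysed here.

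Total counts per library ran from 16512783 to 48460995, the deepest being tnsIM Ezr-KOm replicate 2. Levels are given as CPM, reads of a gene scaled to a common library size of 1e6 reads, after TMM scaling of the library sizes, and groups of 3 values are in the order of replicates 1, 2 and 3. Ezr itself stood at 503, 593 and 497 CPM in WT moMs against 282, 160.005 and 252 CPM in Ezr-KOm moMs (log2 fold change -1.20 ± 0.24, adjusted p = 0.0549). In tnsIMs the values were 679, 515 and 565 against 234, 126 and 213 CPM (log2 fold change -1.62 ± 0.24, adjusted p = 0.00365), and in matIMs 741, 632 and 611 against 167, 93.8 and 144 CPM (log2 fold change -2.29 ± 0.25, adjusted p = 7.73e-05). The genotypes did not overlap in any population, although reads of Ezr remained in every Ezr-KOm library. Adjusted p-values here and throughout are from edgeR's quasi-likelihood test with Benjamini-Hochberg adjustment over 15811 genes, and errors on fold changes are standard errors.

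MMPs, ADAMs and ADAMTS enzymes share a zinc-binding catalytic domain and are made as inactive precursors. Most MMPs are secreted or held at the cell surface and cut collagens, elastin, gelatin and many cytokines. ADAMs sit in the membrane and release the ectodomains of cytokines, receptors and adhesion molecules, while ADAMTS enzymes are secreted and cut proteoglycans, procollagens and von Willebrand factor. TIMPs block the active site. In the lung, macrophage elastase (MMP12) and neutrophil collagenase (MMP8) are the family members best known from inflamed tissue.

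A small set of membrane-bound and myeloid enzymes made up most of the family's RNA. All members together took between 0.266% and 0.351% of the counts of a library. Ranked by CPM per kilobase of exon, averaged over the 6 groups, the order began with Mmp14, Adam8, Mmp8, Adam9, Adam10, Mmp12, Adam17 and Mmp19, and these were followed by Timp1, Adam15 and Timp2. In WT cells Mmp14, the membrane-type MMP that activates proMMP2 and cuts fibrillar collagen, had 74.7 ± 3.84 CPM per kb in moMs, 139 ± 20.8 in tnsIMs and 80.9 ± 14.9 in matIMs (mean ± SD, n = 3). Adam8, a leukocyte sheddase, had 89.7 ± 21, 95.7 ± 17.1 and 119 ± 11.4 CPM per kb in the same order. The 2 genes could not be ranked in moMs, where their spreads overlapped. Mmp8 headed the list in WT moMs at 155 ± 27.7 CPM per kb and had dropped to 4.69 ± 1.04 in matIMs. Adam9 and Adam10 were neighbours in the order and differed by less than their spread in each WT population. Most ADAMTS genes were far lower: Adamts1, the first of them after Adamts-like Adamtsl4, had 8.23 ± 1.6 CPM per kb in WT tnsIMs, its highest WT group.

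**Figure D1:**
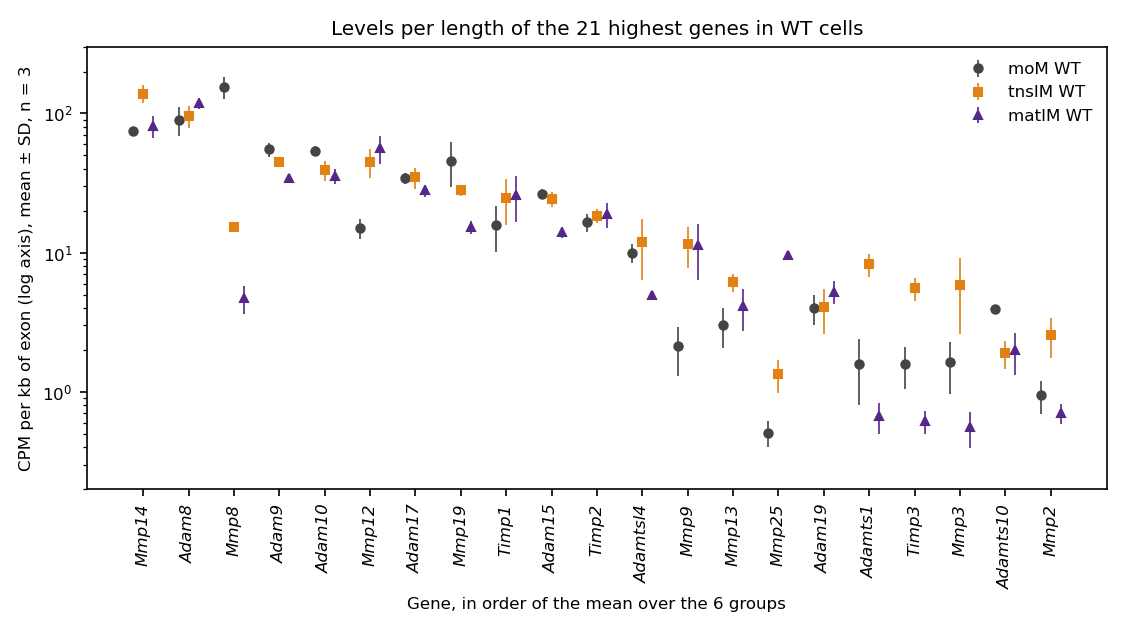
Level per length of the 21 highest members in WT moMs, tnsIMs and matIMs, as CPM per kb of exon on a log axis, with points for the mean and bars for the SD of 3 libraries. Mmp14 and Adam8 stay near the top in all 3 populations, whereas Mmp8 falls from the first place in moMs and Mmp25 rises from moMs to matIMs.

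Of 44 members, 20 were higher and 3 lower in WT tnsIMs than in WT moMs at an adjusted p under 0.05, whereas 21.6% of all tested genes differed (13.0% higher and 8.61% lower). The median log2 fold change was 0.96 over the 44 members and 0.01 over all tested genes. From WT tnsIMs to WT matIMs the direction turned: 6 members were higher and 18 lower in matIMs, against 18.5% of all genes called (8.32% higher and 10.2% lower), with medians of -0.63 and 0.04. Between WT matIMs and WT moMs, 7 were higher and 10 lower in matIMs (24.8% of all genes called, 13.4% higher and 11.4% lower). In Ezr-KOm cells the counts were 15 higher and 3 lower for tnsIMs over moMs (14.3% of all genes, 9.23% and 5.04%), 5 higher and 19 lower for matIMs over tnsIMs (18.2%, 8.37% and 9.85%), and 7 higher and 10 lower for matIMs over moMs (23.3%, 12.5% and 10.7%). With a filter that asked for 10 counts in every library, which removes most of the low ADAMTS genes, 12 members remained called for WT tnsIMs over moMs and 10 for WT matIMs over tnsIMs. Fewer than 44 members were tested under that filter, so these counts are not shares of 44. Without tnsIM Ezr-KOm replicate 2, the deepest library, 11 members were called for Ezr-KOm tnsIMs over moMs instead of 18. Shares of all genes under these settings are not given here. Because tnsIMs enter the first and the second comparison, a gene high in tnsIMs is counted in both.

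Put together by population, 13 members were higher in WT tnsIMs than in both other populations, as were 5.78% of all tested genes. These were Adamts1, Adamts2, Adamts4, Adamts8, Adamts9, Adamts15, Adamtsl2, Mmp2, Mmp3, Mmp11, Mmp14, Mmp15 and Timp3. Another 5 (Adam11, Adam22, Adam23, Mmp23 and Mmp25) were higher in matIMs than in both others (6.10% of all genes), and Mmp8 and Adamts10 were higher in moMs than in both others (5.39%). Adam23, Mmp9, Mmp12 and Mmp25 were lower in moMs than in both others (5.41%), and Adamts6 was lower in tnsIMs than in both others (1.02%). Another 6 (Adam15, Adamts1, Adamtsl4, Mmp3, Mmp8 and Timp3) were lowest in matIMs (3.95%). In Ezr-KOm cells 10 members were highest in tnsIMs (4.29% of all genes), all of them among the 13 of the WT cells, and the same 5 genes were highest in matIMs (6.39%). No population comparison was called for 11 members in WT cells, where 62.7% of all genes had no call.

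**Figure D2:**
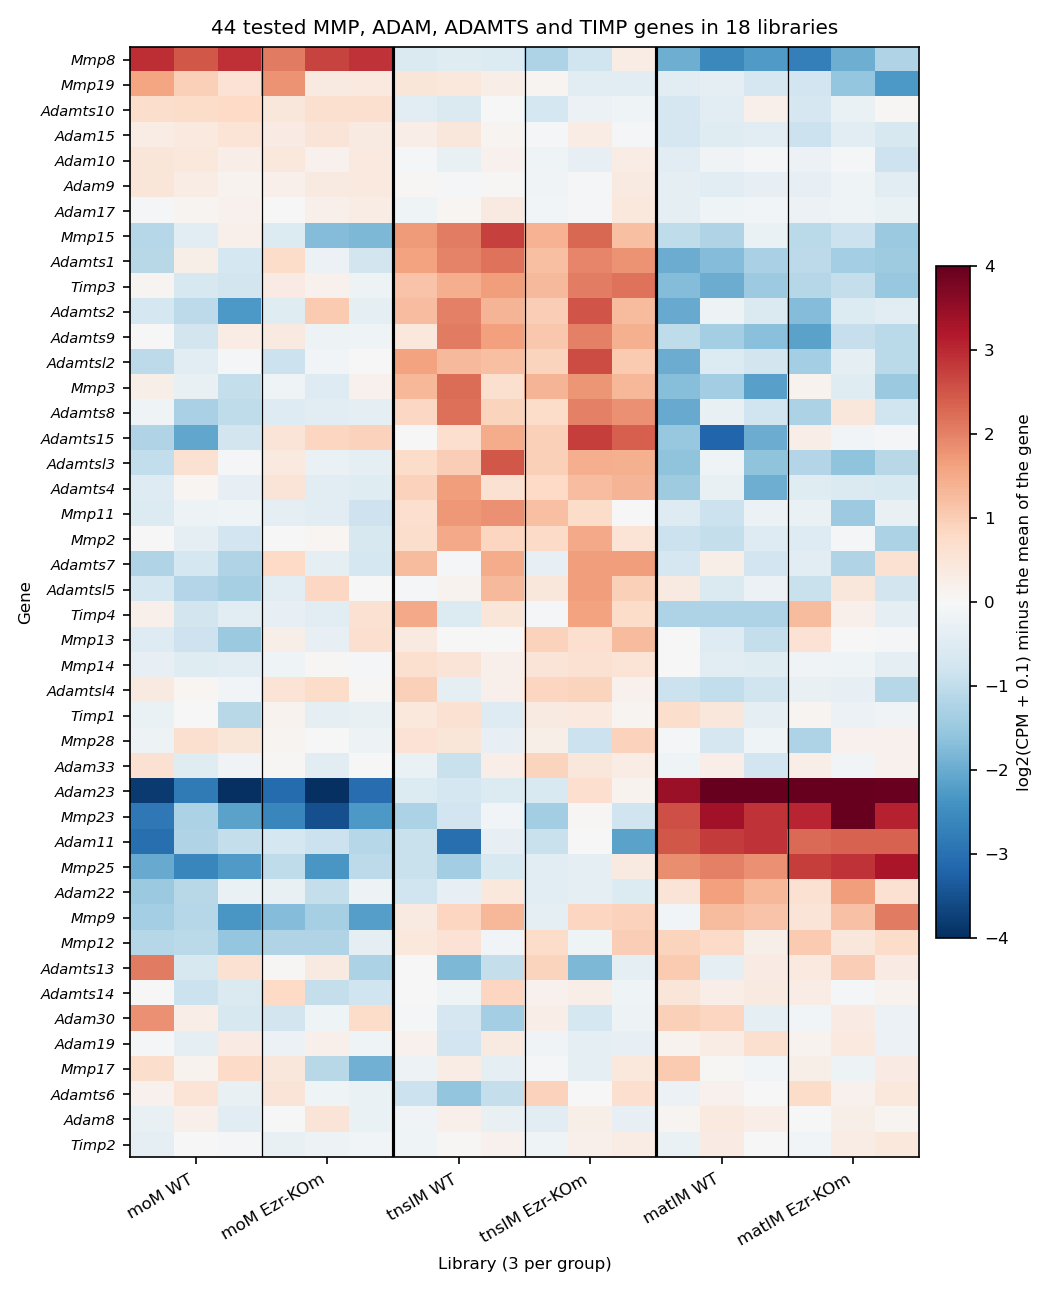
Heatmap of the 44 tested members in 18 libraries, as log2(CPM + 0.1) minus the mean of each gene, with colours cut at 4 log2 units on either side and genes grouped by the population with the highest mean. The block of ADAMTS genes, Mmp2, Mmp3, Mmp15 and Timp3 is red in the 6 tnsIM libraries, and Adam23, Mmp23, Adam11 and Mmp25 are red in the 6 matIM libraries.

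Among the sheddases Adam8, Adam17 and Adam19 had no call between WT populations, and Adam9, Adam10 and Adam15 fell from moMs to matIMs. Adam17, which releases TNF and its receptors, stood at 266, 299 and 315 CPM in WT moMs, 248, 292 and 351 CPM in WT tnsIMs and 214, 245 and 258 CPM in WT matIMs. WT matIMs lay below WT moMs without overlap, but no step was called. Its largest WT difference was log2 fold change -0.31 ± 0.16, adjusted p = 0.204 for matIMs against tnsIMs. Adam8 had 376, 527 and 345 CPM in WT moMs and 495, 600.4 and 555 CPM in WT matIMs, with overlapping values (log2 fold change 0.40 ± 0.21, adjusted p = 0.195). Adam10, which cuts Notch receptors and fractalkine, fell from 321, 306 and 274 CPM in WT moMs to 171, 209 and 215 CPM in WT matIMs without overlap (log2 fold change -0.60 ± 0.19, adjusted p = 0.0274). Adam9 had 268, 236 and 215 CPM in WT moMs, 201, 184 and 201 CPM in WT tnsIMs and 146, 145 and 153 CPM in WT matIMs, and it fell in the same comparison (log2 fold change -0.69 ± 0.14, adjusted p = 0.00104). Its Ezr-KOm libraries had 222, 249.6 and 253 CPM in moMs, 175, 185 and 249 CPM in tnsIMs and 153, 170.4 and 142 CPM in matIMs (log2 fold change -0.64 ± 0.14, adjusted p = 0.00221 for matIMs against moMs). Adam15, at 196, 207 and 231 CPM in WT moMs, fell as well (log2 fold change -0.92 ± 0.15, adjusted p = 0.000118). For Adam15 the step lay between tnsIMs (192, 219 and 171 CPM) and matIMs (100.1, 114 and 119 CPM), with log2 fold change -0.80 ± 0.15, adjusted p = 0.000607. In Ezr-KOm cells Adam15 had 198, 225 and 203 CPM in moMs, 153, 197 and 154 CPM in tnsIMs and 87.3, 119 and 101 CPM in matIMs, the matIMs again being lowest. Adam19 ran from 17.6 to 46.5 CPM over the 9 WT libraries and had no call.

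Proteins that carry ADAM10 and ADAM17 to the surface were read as a list. Of 8 tested partners (iRhoms, Frmd8 and tetraspanins), 3 were higher and 1 lower in WT tnsIMs than in moMs (13.0% and 8.61% of all genes), with a median log2 fold change of -0.07 against 0.01 over all genes. Rhbdf1 (iRhom1), which escorts ADAM17, rose from 4.61, 3.02 and 4.45 to 7.97, 18.7 and 13 CPM (log2 fold change 1.71 ± 0.30, adjusted p = 0.000446), and Tspan15, which directs ADAM10, rose from 4.21, 1.95 and 2.4 to 8.13, 15.3 and 12.7 CPM (log2 fold change 2.09 ± 0.30, adjusted p = 8.19e-05). Both fell again in WT matIMs, to 4.97, 4.91 and 6.52 CPM and 1.86, 2.43 and 2.05 CPM. Tspan33, another ADAM10 partner, rose at each step, reaching 38.1, 53.4 and 45.7 CPM in WT matIMs from 1.99, 1.95 and 2.64 CPM in WT moMs (log2 fold change 4.37 ± 0.26, adjusted p = 1.24e-09). Tspan5 fell over the same interval (log2 fold change -0.82 ± 0.14, adjusted p = 0.000194). Rhbdf2, the iRhom usual in myeloid cells, had 97.4, 140.1 and 131 CPM in WT moMs and 132, 74.2 and 144 CPM in WT tnsIMs, with overlapping values (log2 fold change -0.07 ± 0.22, adjusted p = 0.846).

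The 6 members Mmp13, Mmp12, Mmp3, Mmp8, Mmp27 and Mmp20 lie side by side on mouse chromosome 9, all on the plus strand (GRCm39), and neighbours there had different patterns. Mmp13 starts at 7272514, Mmp12 at 7344381, Mmp3 at 7445822, Mmp8 at 7558457, Mmp27 at 7571397 and Mmp20 at 7628232. Of these, Mmp13, Mmp12 and Mmp3, rose from moMs to tnsIMs while Mmp8 fell, so the 250 bases before their RefSeq gene starts are set side by side here (GRCm38.p6, plus strand). Capitals mark TGANTCA, where N is any base, a pattern that finds the same places on both strands. It takes in the AP-1 letters TGACTCA and TGAGTCA but is wider than them.

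Mmp13, chr9:7272264-7272513: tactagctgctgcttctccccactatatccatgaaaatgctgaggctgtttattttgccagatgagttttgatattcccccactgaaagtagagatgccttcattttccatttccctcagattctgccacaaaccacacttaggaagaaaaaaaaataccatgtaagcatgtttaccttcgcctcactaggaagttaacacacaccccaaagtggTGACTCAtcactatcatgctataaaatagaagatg

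Mmp12, the upstream start, chr9:7344147-7344396: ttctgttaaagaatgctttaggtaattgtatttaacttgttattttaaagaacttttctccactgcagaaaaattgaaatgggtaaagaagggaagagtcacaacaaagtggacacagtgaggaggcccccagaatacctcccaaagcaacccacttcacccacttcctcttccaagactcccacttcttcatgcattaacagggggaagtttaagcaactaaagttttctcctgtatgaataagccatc

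Mmp12, the downstream start, chr9:7347124-7347373: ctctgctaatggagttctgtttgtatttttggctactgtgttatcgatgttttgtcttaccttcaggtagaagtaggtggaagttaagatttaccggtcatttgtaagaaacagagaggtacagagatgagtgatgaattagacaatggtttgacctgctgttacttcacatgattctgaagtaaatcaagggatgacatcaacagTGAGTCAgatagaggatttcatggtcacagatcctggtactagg

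Mmp3, chr9:7445572-7445821: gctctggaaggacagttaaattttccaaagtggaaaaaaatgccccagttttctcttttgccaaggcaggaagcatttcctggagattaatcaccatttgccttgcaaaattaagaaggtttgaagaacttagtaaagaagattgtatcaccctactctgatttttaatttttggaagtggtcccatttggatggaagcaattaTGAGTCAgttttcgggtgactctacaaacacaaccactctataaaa

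Mmp8, chr9:7558179-7558428: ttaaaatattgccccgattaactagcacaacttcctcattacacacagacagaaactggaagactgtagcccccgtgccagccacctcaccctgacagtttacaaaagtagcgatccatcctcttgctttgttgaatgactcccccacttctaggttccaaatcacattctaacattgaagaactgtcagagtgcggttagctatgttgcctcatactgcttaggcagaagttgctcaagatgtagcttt

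The letters TGANTCA begin 35 bases before the start of Mmp13, 46 before that of Mmp3 and 44 before the downstream of 2 starts of Mmp12. They are in neither the upstream window of Mmp12 nor that of Mmp8, which says only that these letters are not in these windows. Of 38 members with a promoter in the RefSeq table, 5 hold the motif (13.2%): Adam19, Mmp3, Mmp12, Mmp13 and Mmp20. It is in a window of 7.82% of all 27025 genes of that table and of 6.03% of the 11144 genes tested here that the table holds. The match of Mmp20 is TGAATCA, and all these shares count any middle letter. A match is a description of the letters and no evidence of binding.

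Mmp8, the neutrophil collagenase, was highest in moMs. It stood at 422, 299 and 408 CPM in WT moMs, 35.9, 38.4 and 37.1 CPM in WT tnsIMs and 14, 8.93 and 11.3 CPM in WT matIMs, and no groups overlapped. The fall was -3.34 ± 0.38 on the log2 scale from moMs to tnsIMs (adjusted p = 8.09e-06) and -1.71 ± 0.37 from tnsIMs to matIMs (adjusted p = 0.00235). With 226, 351 and 402 CPM in moMs, 22.8, 31.1 and 66.5 CPM in tnsIMs and 8.07, 13.8 and 23.3 CPM in matIMs, Ezr-KOm cells gave -3.03 ± 0.37 and -1.42 ± 0.36 for the same steps (adjusted p = 3.03e-05 and 0.00849). The 10 neutrophil markers summed to 386 to 492 CPM in moMs, 339 to 611 CPM in tnsIMs and 195 to 411 CPM in matIMs. From WT moMs to tnsIMs, where Mmp8 fell, 5 of the 10 were higher (S100a9, Ly6g, Cxcr2, Retnlg and Ltf) and 1 lower (Elane), with a median log2 fold change of 2.25. From WT tnsIMs to matIMs none was higher and 1 was lower (Csf3r). Csf3r, the most abundant of the list in moMs, had 308 to 421 CPM in moMs and 93 to 163 CPM in matIMs. The defining markers Ly6g and Mpo were near 0 in all 18 libraries, at most 0.918 and 1.2 CPM. The part of neutrophils in the levels of Mmp8 was not tested.

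Mmp12, the macrophage elastase, went the other way. Its values were 116, 122 and 88.3 CPM in WT moMs, 343, 389 and 241 CPM in WT tnsIMs and 482, 435 and 303 CPM in WT matIMs. Both MHC-II+ groups lay above the moMs, by 1.57 ± 0.29 in tnsIMs (adjusted p = 0.000689) and 1.90 ± 0.29 in matIMs (adjusted p = 8.13e-05) on the log2 scale, and they overlapped with each other. The Ezr-KOm libraries had 112, 112 and 195 CPM in moMs, 432, 227 and 512 CPM in tnsIMs and 528, 352 and 431 CPM in matIMs, with the moMs again lowest. Mmp13 (collagenase 3) was higher in WT tnsIMs, at 19.3, 14.8 and 15 CPM, than in WT moMs, at 10.4, 8.41 and 5.32 CPM (log2 fold change 1.03 ± 0.30, adjusted p = 0.0176). WT matIMs had 14.9, 10.4 and 7.68 CPM, which overlapped with both.

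Mmp3 (stromelysin 1) peaked in tnsIMs. WT moMs had 4.16, 2.86 and 1.77 CPM, WT tnsIMs 8.97, 17.1 and 5.64 CPM and WT matIMs 1.02, 1.28 and 0.708 CPM, with no overlap between any of the groups. The steps were 1.85 ± 0.42 (adjusted p = 0.00409) and -3.39 ± 0.46 (adjusted p = 3.10e-05) on the log2 scale. Ezr-KOm cells had 3.13, 2.47 and 4.01 CPM in moMs and 9.18, 12.4 and 8.99 CPM in tnsIMs (log2 fold change 1.67 ± 0.42, adjusted p = 0.00997). Mmp27 and Mmp20 had too few reads for a test. Mmp20, the enamel protease enamelysin, had 0 counts in every moM library and in the WT tnsIMs, 0, 2 and 0 counts in Ezr-KOm tnsIMs, 3, 5 and 5 counts in WT matIMs and 6, 13 and 10 counts in Ezr-KOm matIMs.

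**Figure D3:**
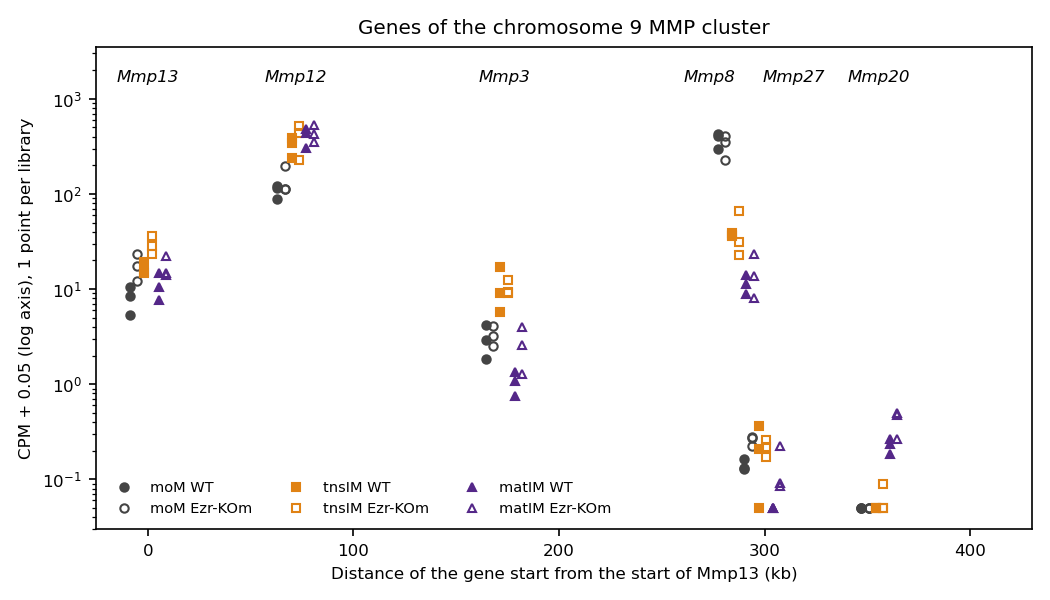
CPM + 0.05 on a log axis against the distance of each gene start from the start of Mmp13 in kb, with 1 point per library, filled for WT and open for Ezr-KOm, and populations set apart sideways around each gene position. Mmp8 steps down from moMs to matIMs, Mmp12 is lowest in moMs and Mmp3 is highest in tnsIMs.

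Of the gelatinases and membrane-type MMPs, Mmp9 was higher in both MHC-II+ populations than in moMs, whereas Mmp2, Mmp14 and Mmp15 were higher in tnsIMs than in both others. Mmp9 (gelatinase B) stood at 8.82, 10.3 and 4.45 CPM in WT moMs, 29.1, 41.5 and 56.7 CPM in WT tnsIMs and 20.9, 54.4 and 49.7 CPM in WT matIMs. It was higher in both than in moMs (log2 fold change 2.44 ± 0.46, adjusted p = 0.000790 for tnsIMs and log2 fold change 2.41 ± 0.46, adjusted p = 0.000600 for matIMs), and tnsIMs and matIMs overlapped. Its Ezr-KOm values were 6.7, 8.87 and 4.85 CPM in moMs, 17.8, 41.4 and 42.7 CPM in tnsIMs and 32.5, 51.6 and 96.5 CPM in matIMs, with the moMs apart from both. Mmp14 rose from 487, 443 and 452 CPM in WT moMs to 966, 883 and 715 CPM in WT tnsIMs (log2 fold change 0.89 ± 0.14, adjusted p = 0.000230) and returned to 605, 451 and 441 CPM in WT matIMs (log2 fold change -0.78 ± 0.14, adjusted p = 0.000677). In Ezr-KOm cells tnsIMs had 882, 946 and 910.3 CPM and matIMs 564, 546 and 482 CPM (log2 fold change -0.78 ± 0.14, adjusted p = 0.000647). This was the most abundant gene among those that peaked in tnsIMs.

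Mmp2 (gelatinase A), the enzyme that MMP14 activates, was much lower and had the same shape, with 4.27, 3.23 and 2.48 CPM in WT moMs, 7.01, 12.4 and 7.84 CPM in WT tnsIMs and 2.31, 2.18 and 2.94 CPM in WT matIMs (log2 fold change 1.45 ± 0.35, adjusted p = 0.00534, then log2 fold change -1.87 ± 0.35, adjusted p = 0.000739). Mmp15, another membrane-type enzyme, rose from 0.399, 0.704 and 1.18 to 3.55, 4.44 and 7.33 CPM and fell to 0.443, 0.384 and 0.82 CPM (log2 fold change 2.71 ± 0.49, adjusted p = 0.000573, then log2 fold change -3.19 ± 0.50, adjusted p = 0.000135). Its Ezr-KOm values, 0.652, 0.231 and 0.22 CPM in moMs, 2.83, 5.41 and 2.46 CPM in tnsIMs and 0.43, 0.516 and 0.293 CPM in matIMs, were again highest in tnsIMs. Mmp11 (stromelysin 3) went from 0.342, 0.456 and 0.472 to 0.918, 2.03 and 2.19 CPM (log2 fold change 1.99 ± 0.50, adjusted p = 0.00778). Mmp19 fell across the populations, from 226, 147 and 114 CPM in WT moMs through 106, 101 and 90.1 CPM in WT tnsIMs to 55.5, 58.4 and 47.8 CPM in WT matIMs (log2 fold change -1.59 ± 0.37, adjusted p = 0.00348). Ezr-KOm moMs had 262, 96.6 and 99.4 CPM and Ezr-KOm tnsIMs 82.1, 56 and 55.2 CPM, replicate 1 of the moMs being the highest of all. Mmp17 and Mmp28 were under 2 CPM in every library and had no call.

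Proteoglycan-cutting ADAMTS enzymes made up 5 of the 13 members that were highest in WT tnsIMs (Adamts1, Adamts4, Adamts8, Adamts9 and Adamts15). Adamts1, which cuts versican and aggrecan, had 5.41, 13.6 and 7.17 CPM in WT moMs, 35.8, 46.1 and 53.2 CPM in WT tnsIMs and 2.88, 3.42 and 4.66 CPM in WT matIMs, without overlap. The steps were 2.36 ± 0.35 (adjusted p = 0.000113) and -3.62 ± 0.38 (adjusted p = 1.71e-06) on the log2 scale. Ezr-KOm cells had 19.3, 9.95 and 6.96 CPM in moMs, 26.7, 45.3 and 40.4 CPM in tnsIMs and 5.56, 4.51 and 4.28 CPM in matIMs of Adamts1, again highest in tnsIMs. Adamts9, of the same proteoglycanase group, had 0.797, 0.456 and 1.02 CPM in WT moMs and 1.13, 3.8 and 2.74 CPM in WT tnsIMs against 0.355, 0.256 and 0.186 CPM in WT matIMs (log2 fold change -3.24 ± 0.54, adjusted p = 0.000256), and in Ezr-KOm cells 1.09, 0.694 and 0.705 CPM in moMs, 1.83, 3.63 and 2.37 CPM in tnsIMs and 0.108, 0.378 and 0.335 CPM in matIMs. Adamts4, Adamts8 and Adamts15 rose by 1.41, 2.51 and 2.32 on the log2 scale from WT moMs to tnsIMs (adjusted p = 0.0243, 0.00883 and 0.00606) from levels under 2 CPM.

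Adamts2, a procollagen N-proteinase, stood at 0.911, 0.704 and 0.236 CPM in WT moMs, 3.75, 6.53 and 4.15 CPM in WT tnsIMs and 0.31, 1.32 and 1.01 CPM in WT matIMs (log2 fold change 2.98 ± 0.62, adjusted p = 0.00199, then log2 fold change -2.43 ± 0.59, adjusted p = 0.00635). Ezr-KOm tnsIMs had 3.2, 9.3 and 3.9 CPM and Ezr-KOm matIMs 0.394, 1.03 and 1.13 CPM. Its relative Adamts14 had no call in any population comparison (0.622 to 2.27 CPM over the WT libraries). Adamtsl2, an ADAMTS-like protein with no protease domain, rose from 0.512, 0.829 and 1.1 to 3.84, 3.04 and 2.82 CPM (log2 fold change 1.96 ± 0.51, adjusted p = 0.00991). Adamts7, at or below 3 counts in each WT moM library, was at least 2.75-fold higher in WT tnsIMs (adjusted p = 0.0263), with 11, 2 and 14 counts there. Adamts10, a gene linked to fibrillin, had the opposite order, with 49.99, 51.6 and 53.8 CPM in WT moMs and 22.5, 20.5 and 31.5 CPM in WT tnsIMs (log2 fold change -1.06 ± 0.23, adjusted p = 0.00230). WT matIMs had 19.4, 23 and 35.6 CPM, and the Ezr-KOm libraries had 42.2, 48.1 and 48.3 CPM in moMs, 18.9, 26.5 and 27.2 CPM in tnsIMs and 19.4, 25.6 and 31.7 CPM in matIMs. In both genotypes the moMs stood above the other populations. Adamts6 was lowest in WT tnsIMs, at 0.793, 0.444 and 0.744 CPM against 1.71, 2.28 and 1.22 CPM in WT moMs (log2 fold change -1.36 ± 0.38, adjusted p = 0.0158) and 1.29, 1.71 and 1.53 CPM in WT matIMs. That call was lost without moM WT replicate 2 (log2 fold change -1.10, adjusted p = 0.0869) and without tnsIM WT replicate 2 (-1.14, 0.0754).

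Markers of structural lung cells moved with the tnsIM-high genes. The 8 fibroblast markers summed to 27.8 to 63.3 CPM in moMs, 102 to 168 CPM in tnsIMs and 16.3 to 34.3 CPM in matIMs, and 6 of them were higher in WT tnsIMs than in moMs. Col1a1 went from 2.9, 4.39 and 3.39 CPM in WT moMs to 21.7, 17.9 and 20.8 CPM in WT tnsIMs, whereas Lum stayed at or below 2.01 CPM in all libraries. The 6 endothelial markers, all higher in WT tnsIMs, summed to 91.9 to 129, 221 to 443 and 72.8 to 97.2 CPM in the same order. For the 8 epithelial markers, of which 7 were higher in WT tnsIMs, the sums were 19.7 to 124, 1551 to 4047 and 167 to 374 CPM. Their part in the tnsIM levels of the tnsIM-high members was not tested, nor was it for other tnsIM-high genes such as Rhbdf1 and Tspan15. In bulk libraries of this kind, fewer cells of a type and less RNA per cell cannot be told apart.

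The 5 members that were highest in matIMs were led by Adam23. Adam11, Adam22 and Adam23 are membrane proteins of the ADAM family without protease activity that bind LGI proteins in the nervous system. Adam23 stood at 0.114, 0.331 and 0 CPM in WT moMs, 1.96, 1.78 and 2.0 CPM in WT tnsIMs and 33.1, 58.8 and 54.5 CPM in WT matIMs (log2 fold change 4.66 ± 0.42, adjusted p = 3.96e-07 for the second step). In Ezr-KOm cells the values were 0.261, 0 and 0.264 CPM in moMs, 1.91, 4.75 and 3.22 CPM in tnsIMs and 50.6, 60.5 and 46.5 CPM in matIMs (log2 fold change 3.96 ± 0.39, adjusted p = 1.19e-06). Adam11 rose from 0, 0.249 and 0.315 CPM in WT moMs and 0.334, 0 and 0.549 CPM in WT tnsIMs to 4.43, 5.47 and 5.92 CPM in WT matIMs (log2 fold change 4.03 ± 0.68, adjusted p = 0.000263), and Ezr-KOm cells had 0.391, 0.347 and 0.264 CPM in moMs, 0.332, 0.698 and 0.0848 CPM in tnsIMs and 3.76, 4.03 and 4.02 CPM in matIMs. Adam22 rose from 0.709, 1.01 and 1.76 to 1.91, 4.23 and 3.43 CPM (log2 fold change 1.44 ± 0.45, adjusted p = 0.0289), a call that was lost when any of tnsIM WT replicates 1 and 2 or matIM WT replicates 2 and 3 was left out (adjusted p = 0.0792 to 0.137). WT moMs had 0.399, 0.539 and 1.06 CPM of Adam22, and Ezr-KOm cells had 1.04, 0.617 and 1.1 CPM in moMs, 0.914, 0.978 and 0.848 CPM in tnsIMs and 2.01, 4.3 and 2.01 CPM in matIMs.

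Mmp25, the GPI-anchored leukolysin known from neutrophils, rose from 3.25, 2.11 and 2.76 CPM in WT moMs and 7.3, 5.07 and 8.89 CPM in WT tnsIMs to 49, 55.4 and 48 CPM in WT matIMs (log2 fold change 2.83 ± 0.30, adjusted p = 2.27e-06). Mmp23, a membrane-tethered MMP that lacks the usual haemopexin domain, rose from 0.0569, 0.373 and 0.157 CPM in WT moMs and 0.375, 0.571 and 0.94 CPM in WT tnsIMs to 6.74, 11.5 and 8.31 CPM in WT matIMs (log2 fold change 3.79 ± 0.51, adjusted p = 2.47e-05). Its Ezr-KOm values were 0.087, 0 and 0.132 CPM in moMs, 0.332, 1.08 and 0.551 CPM in tnsIMs and 9.18, 17.9 and 9.39 CPM in matIMs. In Ezr-KOm moMs it was at or below 3 counts in each library, and Ezr-KOm matIMs were at least 96.3-fold higher. Groups did not overlap in any of these steps to matIMs, Adam22 included.

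Markers of dendritic cells and B cells rose with these 5 genes. The 6 markers of mature dendritic cells (Ccr7, Fscn1, Ccl22, Cacnb3, Cd200 and Ccl17) summed to 48.6 to 99.9 CPM in moMs, 489 to 823 CPM in tnsIMs and 5806 to 8554 CPM in matIMs, and 5 of the 6 were higher in WT matIMs than in WT tnsIMs at an adjusted p under 0.05. Fscn1 stood at 1.02, 1.37 and 1.81 CPM in WT moMs, 33, 40.2 and 47.5 CPM in WT tnsIMs and 614, 1019.5 and 839 CPM in WT matIMs. None of the 6 was at 0 in any matIM library. Of 6 conventional dendritic cell markers 4 were higher in WT matIMs than in WT tnsIMs, and their sum was 60.6 to 103 CPM in moMs, 51.6 to 241 CPM in tnsIMs and 681 to 1478 CPM in matIMs. All 5 B cell markers were higher in the same comparison, with sums of 8.57 to 13.2, 35.5 to 100.3 and 84.6 to 222 CPM. The 9 interstitial macrophage markers summed to 4110.3 to 4820.2 CPM in moMs, 4445 to 5254 CPM in tnsIMs and 3443 to 3958 CPM in matIMs, with C1qa, C1qb, C1qc and Mrc1 among those higher and Csf1r and Fcgr1 among those lower in WT matIMs than in moMs. By the study's gating these populations came from CD11c- cells after removal of granulocytes, while dendritic cells were gated among CD11c+ cells as CD24high CD64neg. The part of dendritic cells and B cells in the matIM levels of Adam23, Mmp23 and Mmp25 was not tested.

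**Figure D4:**
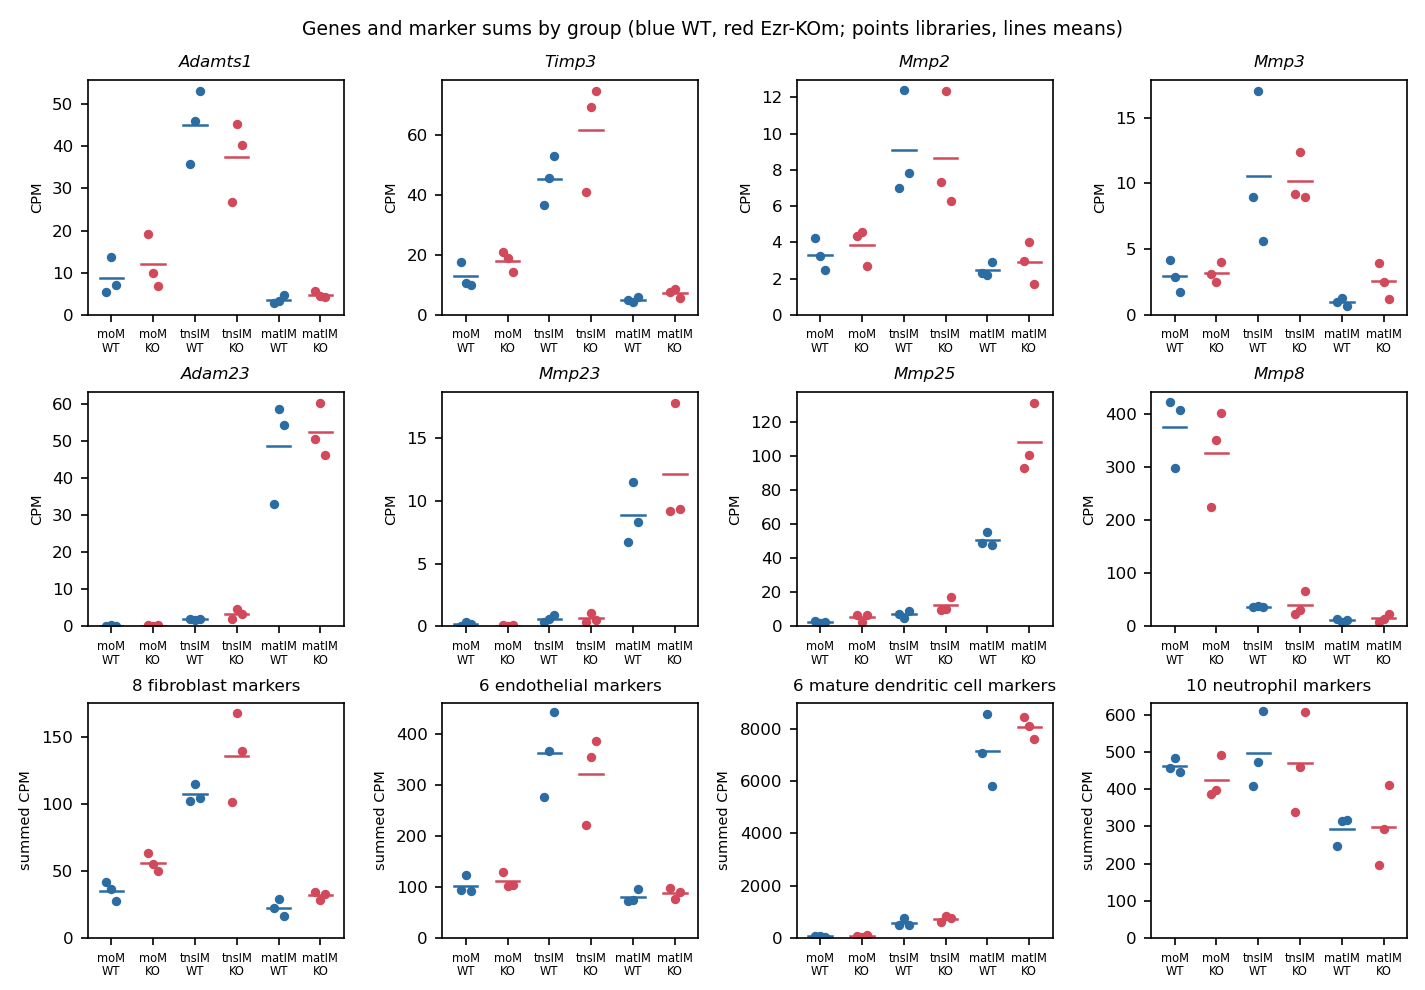
CPM of 8 members and summed CPM of 4 marker lists in each of 18 libraries (points) with group means (lines), blue for WT and red for Ezr-KOm, on linear axes that start at 0. Across populations, the tnsIM-high genes in the top row share their shape with the fibroblast and endothelial sums, and Adam23, Mmp23 and Mmp25 share theirs with the mature dendritic cell sum. In matIMs the mature dendritic cell sum was 5806 to 8554 CPM in WT and 7601 to 8440 CPM in Ezr-KOm libraries. The part of dendritic cells in the genotype difference of Mmp25 was not tested.

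The inhibitors split into 1 that followed the ADAMTS enzymes (Timp3), 2 with no call (Timp1 and Timp2) and the scarce Timp4. Timp3, the matrix-bound TIMP that inhibits ADAM17 and ADAMTS enzymes as well as MMPs, stood at 17.8, 10.7 and 10.0003 CPM in WT moMs, 36.6, 45.7 and 52.9 CPM in WT tnsIMs and 4.92, 4.14 and 6.0 CPM in WT matIMs. No groups overlapped, and both steps were called (log2 fold change 1.82 ± 0.26, adjusted p = 7.23e-05, then log2 fold change -3.16 ± 0.28, adjusted p = 3.18e-07). The Ezr-KOm values were 20.8, 18.8 and 14.4 CPM in moMs, 40.9, 69.3 and 74.6 CPM in tnsIMs and 7.46, 8.6 and 5.7 CPM in matIMs, with steps of 1.77 and -3.08 on the log2 scale (adjusted p = 0.000135 and 4.51e-07).

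Timp2, which also takes part in the activation of proMMP2 by MMP14, had 61.5, 80.3 and 79.4 CPM in WT moMs, 72.3, 83.1 and 91.2 CPM in WT tnsIMs and 68, 102 and 82.8 CPM in WT matIMs. The groups overlapped, and its widest WT difference was log2 fold change 0.19 ± 0.17, adjusted p = 0.466. Ezr-KOm cells had 66.2, 70.9 and 74.5 CPM in moMs, 72.8, 93.1 and 98.8 CPM in tnsIMs and 75.3, 99 and 108 CPM in matIMs, a span like that of the WT cells. Timp1 had 33.5, 41.3 and 18.7 CPM in moMs, 54.1, 61.9 and 28.5 CPM in tnsIMs and 66.7, 55.1 and 30.7 CPM in matIMs of WT mice (log2 fold change 0.71 ± 0.30, adjusted p = 0.103 for matIMs against moMs), and 45.2, 31.4 and 32.7 CPM in moMs, 52.7, 53.7 and 43.8 CPM in tnsIMs and 44.2, 34.3 and 36.9 CPM in matIMs in Ezr-KOm cells. In each WT population replicate 3 was the lowest for Timp1. Timp4 was near the limit of detection, with 3, 1 and 2 counts in WT moMs, 2, 2 and 6 counts in Ezr-KOm moMs, 3, 31 and 7 counts in Ezr-KOm tnsIMs, 14, 1 and 6 counts in WT tnsIMs and 0 counts in each WT matIM library, so that tnsIMs were at least 2.37-fold higher, or at least 1.2-fold without tnsIM WT replicate 1 (adjusted p = 0.0103). Among other inhibitors, Reck, a membrane-anchored MMP inhibitor, rose from 1.2, 0.746 and 0.433 to 2.09, 2.6 and 3.96 CPM from WT moMs to tnsIMs (log2 fold change 1.89 ± 0.44, adjusted p = 0.00497). Lrp1, the receptor that clears MMPs and their inhibitor complexes, fell from 498, 264 and 441 CPM in WT tnsIMs to 229, 214 and 243 CPM in WT matIMs (log2 fold change -0.81 ± 0.19, adjusted p = 0.00435).

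The plasminogen system, which activates several proMMPs, had 9 tested genes. In WT tnsIMs over moMs 3 were higher (Plat, Serpine2 and Plgrkt) and none lower (13.0% and 8.61% of all genes). In WT matIMs over tnsIMs 1 was higher (Anxa2) and 3 lower (Plaur, Serpine2 and Serpinb2), against 8.32% and 10.2% of all genes. Serpine2, an inhibitor of plasminogen activators, stood at 4.33, 2.78 and 3.46 CPM in WT moMs, 10.2, 24.4 and 12.1 CPM in WT tnsIMs and 2.66, 3.12 and 1.86 CPM in WT matIMs. Plaur, the urokinase receptor, fell from 1877, 3347 and 1284 CPM in WT tnsIMs to 1261, 1027 and 789 CPM in WT matIMs (log2 fold change -1.08 ± 0.26, adjusted p = 0.00583). Furin, which removes the propeptide of ADAMs and membrane-type MMPs, overlapped between the WT populations and had no call (log2 fold change -0.29 ± 0.26, adjusted p = 0.466 for matIMs against moMs).

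Of 23 known substrates that are shed from the membrane, 7 were higher and 5 lower in WT tnsIMs than in moMs (13.0% and 8.61% of all genes), and the median log2 fold change was 0.00257. Cx3cl1, the membrane-bound chemokine cut by ADAM10 and ADAM17, rose from 3.3, 4.1 and 4.61 CPM in WT moMs through 17.1, 22.2 and 28.2 CPM in tnsIMs to 66.2, 87.7 and 85 CPM in matIMs (log2 fold change 4.30 ± 0.31, adjusted p = 9.71e-09). Cxcl16, cut by the same enzymes, rose by 1.18 on the log2 scale from moMs to tnsIMs (adjusted p = 4.07e-05). Tnf had 654, 356 and 442 CPM in WT moMs and 1007, 550.2 and 763 CPM in WT tnsIMs (log2 fold change 0.68 ± 0.35, adjusted p = 0.185). These are levels of RNA, and shedding itself was not measured. Of 4 tested genes for MMP induction and docking, 1 (Itgav) was lower in WT matIMs than in moMs (11.4% of all genes) and none was called in the other WT comparisons. Of 4 tested proprotein convertases, 2 (Pcsk5 and Pcsk7) were lower in WT matIMs than in moMs.

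The question put to the genotypes was whether loss of Ezrin, which links the plasma membrane to actin, changes the protease genes of each population. No member passed an adjusted p of 0.05 in moMs, tnsIMs or matIMs with edgeR, where 0.171%, 0.164% and 0.152% of all tested genes did (0.0759%, 0.0822% and 0.0632% higher and 0.0949%, 0.0822% and 0.0885% lower). At an unadjusted p under 0.05 there were 6, 4 and 6 members, and DESeq2 called 1, 1 and 2 at its adjusted p. Shares of all genes under these settings are not given here, so no excess over all genes is read from these counts. By the rule the study used, an unadjusted p under 0.05 with a log2 fold change beyond 0.75 in size, 5 of 44 members were higher in Ezr-KOm moMs (2.51% of all genes called, 1.55% higher and 0.961% lower), 4 in Ezr-KOm tnsIMs (1.83%, with 1.08% higher and 0.759% lower), and 4 were higher and 1 lower in Ezr-KOm matIMs (2.40%, with 1.41% higher and 0.987% lower). The median log2 fold change of the 44 members was 0.15, 0.10 and 0.11, and that of all genes rounded to 0.00 in each. Values of the 2 genotypes did not overlap for 7, 5 and 6 members, against 8.52%, 5.81% and 10.1% of all genes.

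Adamts15, a secreted aggrecan- and versican-cutting enzyme, passed that rule in all 3 populations. In moMs it had 0.455, 0.207 and 0.669 CPM in WT and 1.74, 2.24 and 2.34 CPM in Ezr-KOm cells (log2 fold change 2.23 ± 0.56, unadjusted p = 0.000864, adjusted p = 0.248). In matIMs it had 0.355, 0.0427 and 0.224 against 1.43, 1.1 and 1.13 CPM (log2 fold change 2.54 ± 0.62, unadjusted p = 0.000632, adjusted p = 0.227), which in WT matIMs were 8, 1 and 6 counts. Both pairs of groups were apart. In tnsIMs the values were 1.21, 1.97 and 3.53 against 2.37, 8.6 and 6.7 CPM and overlapped (log2 fold change 1.40 ± 0.49, unadjusted p = 0.0105, adjusted p = 1), and without tnsIM Ezr-KOm replicate 2, the deepest library, the log2 fold change was 1.01 and no longer passed the rule. DESeq2 gave an adjusted p of 0.0174 in moMs and 0.0124 in matIMs. With 1 library left out, edgeR gave 0.11 to 0.833 in moMs and 0.0938 to 0.654 in matIMs.

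Mmp25 was higher in Ezr-KOm cells of all 3 populations by the same rule. The values were 3.25, 2.11 and 2.76 CPM in WT and 6.66, 2.62 and 6.52 CPM in Ezr-KOm moMs (log2 fold change 0.96 ± 0.32, unadjusted p = 0.00757, adjusted p = 0.796), which overlapped. In tnsIMs they were 7.3, 5.07 and 8.89 against 9.85, 10.2 and 17.3 CPM (log2 fold change 0.80 ± 0.29, unadjusted p = 0.0141, adjusted p = 1), and in matIMs 49, 55.4 and 48 against 93, 101 and 132 CPM (log2 fold change 1.09 ± 0.28, unadjusted p = 0.00101, adjusted p = 0.307), both without overlap. The rule was missed in moMs without Ezr-KOm replicate 1 (log2 fold change 0.74) and in tnsIMs without WT replicate 2 (0.61) or Ezr-KOm replicate 3 (0.52). In matIMs the adjusted p was 0.0472 with DESeq2 and 0.0335 when the 6 matIM libraries were fitted alone. With 1 library left out, edgeR gave 0.0449 (without moM Ezr-KOm replicate 2) to 0.904 (without matIM Ezr-KOm replicate 3).

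Mmp25 lies on chromosome 17 (23847285 to 23864251, minus strand, GRCm39), 16.8 Mb from Ezr on the same chromosome. Of 204 tested genes between 20 and 30 Mb on chromosome 17, 10.8%, 10.8% and 11.3% passed the same rule in moMs, tnsIMs and matIMs, several times the shares over all genes given above. Zfp213, close by at 23775741, had log2 fold changes of -1.31, -0.66 and -0.91 in moMs, tnsIMs and matIMs. Nearer on the other side, Bicdl2 had 2.90, -0.63 and 0.66, Thoc6 had -0.05, -0.28 and -0.12, Hcfc1r1 -0.05, 0.03 and 0.05, and Tnfrsf12a 0.35, 0.19 and 0.00376. Position on the chromosome of the floxed allele and the loss of Ezrin cannot be told apart for Mmp25. Adamts10, 26.7 Mb from Ezr, had log2 fold changes of -0.16, -0.04 and -0.03 and passed the rule in no population. Mmp23 lies on chromosome 4 at 155735112, where 10.1%, 8.28% and 7.36% of 326 genes between 130 and 160 Mb passed the rule, and itself had no call. Its log2 fold changes were 0.11 in tnsIMs and 0.46 in matIMs, and in moMs it had 1, 9 and 4 counts in WT and 2, 0 and 3 counts in Ezr-KOm cells.

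Mmp13 was higher in Ezr-KOm moMs, at 17.4, 12 and 23.4 against 10.4, 8.41 and 5.32 CPM (log2 fold change 1.13 ± 0.30, unadjusted p = 0.00120, adjusted p = 0.305), and in Ezr-KOm tnsIMs, at 28.2, 23.6 and 36.2 against 19.3, 14.8 and 15 CPM (log2 fold change 0.84 ± 0.29, unadjusted p = 0.00929, adjusted p = 1), and the genotypes did not overlap in either. Without tnsIM Ezr-KOm replicate 3 the second was 0.69 and under the fold threshold. In matIMs the values 14.9, 10.4 and 7.68 against 22.1, 14.8 and 14.1 CPM overlapped (log2 fold change 0.63 ± 0.29, unadjusted p = 0.0432, adjusted p = 1), a difference under the fold threshold that passed it without matIM WT replicate 1 (0.93) or Ezr-KOm replicate 3 (0.76). Among its neighbours on chromosome 9, Mmp3 was past the rule in matIMs (1.36), Mmp12 had 0.36, 0.27 and 0.10 in moMs, tnsIMs and matIMs, and Mmp8 had -0.21, 0.11 and 0.40, with no value of Mmp12 or Mmp8 past the rule.

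In moMs the procollagen-processing Adamts2 and the ADAMTS-like Adamtsl5 were also higher in Ezr-KOm cells. Adamts2 had 1.09, 3.32 and 1.19 against 0.911, 0.704 and 0.236 CPM (log2 fold change 1.63 ± 0.62, unadjusted p = 0.0170, adjusted p = 1), and the call was lost without moM WT replicate 3 (1.21) or Ezr-KOm replicate 2 (0.92). Adamtsl5 had 1.35, 3.28 and 1.81 against 1.08, 0.746 and 0.669 CPM (log2 fold change 1.38 ± 0.51, unadjusted p = 0.0143, adjusted p = 1), and the call was lost without Ezr-KOm replicate 2 (0.94). In tnsIMs Adamtsl5 had 1.75, 2.03 and 4.62 CPM in WT and 2.53, 6.02 and 3.65 CPM in Ezr-KOm cells, and in matIMs 2.35, 1.2 and 1.53 against 0.932, 2.51 and 1.05 CPM, with overlap in both. Leaving out that library reduced the members past the rule in moMs from 5 to 3. In tnsIMs and matIMs Adamts2 differed by 0.20 ± 0.54 and -0.06 ± 0.61 on the log2 scale. Fibroblast markers moved with these genes in moMs, with 3 of 8 (Col1a1, Pdgfra and Dcn) higher in Ezr-KOm cells by the study's rule and none lower. Their sum was 27.8 to 42 CPM in WT and 50.4 to 63.3 CPM in Ezr-KOm moMs, and Pdgfra was 3.76, 3.77 and 2.24 against 6.92, 10.2 and 5.6 CPM. Pdgfra was also higher by the rule in Ezr-KOm tnsIMs (0.98) and matIMs (1.56), as Adamts15 was. Lum was at most 0.739 CPM in moMs. The part of these markers in the genotype differences was not tested.

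Adamts6 was the member with the smallest adjusted p between genotypes. It stood at 0.793, 0.444 and 0.744 CPM in WT and 2.99, 1.54 and 2.46 CPM in Ezr-KOm tnsIMs, without overlap (log2 fold change 1.78 ± 0.38, unadjusted p = 0.000182, adjusted p = 0.0959), and DESeq2 gave an adjusted p of 0.00753. The WT tnsIM values rest on 19, 7 and 19 counts. With edgeR the adjusted p was 0.664 when the tnsIM libraries were fitted alone, and 0.0507 to 0.454 with 1 library left out. Ezr-KOm moMs had 2.22, 1.35 and 1.23 CPM and Ezr-KOm matIMs 2.62, 1.72 and 2.05 CPM. In moMs and matIMs its differences were -0.12 ± 0.36 and 0.50 ± 0.36. WT tnsIMs were the low group, since Ezr-KOm tnsIMs overlapped with the moMs of both genotypes.

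In matIMs Mmp3 was higher in Ezr-KOm cells, at 3.94, 2.51 and 1.22 against 1.02, 1.28 and 0.708 CPM (log2 fold change 1.36 ± 0.46, unadjusted p = 0.00793, adjusted p = 0.847). The values overlapped, and the call was lost without Ezr-KOm replicate 1 (0.90). Mmp19, a secreted MMP of the stromelysin-like kind, was the only member lower by the rule, at 44.1, 25.6 and 15.4 against 55.5, 58.4 and 47.8 CPM without overlap (log2 fold change -0.92 ± 0.37, unadjusted p = 0.0216, adjusted p = 1). Its call was lost without matIM WT replicate 1 or 2 or Ezr-KOm replicate 2 or 3, with log2 fold changes from -0.88 to -0.61. Timp4 had 0 counts in each WT matIM library and 13, 5 and 2 counts in Ezr-KOm matIMs, which makes it at least 1.94-fold higher, or at least 1.03-fold without Ezr-KOm replicate 1 (unadjusted p = 0.00215, adjusted p = 0.478).

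**Figure D5:**
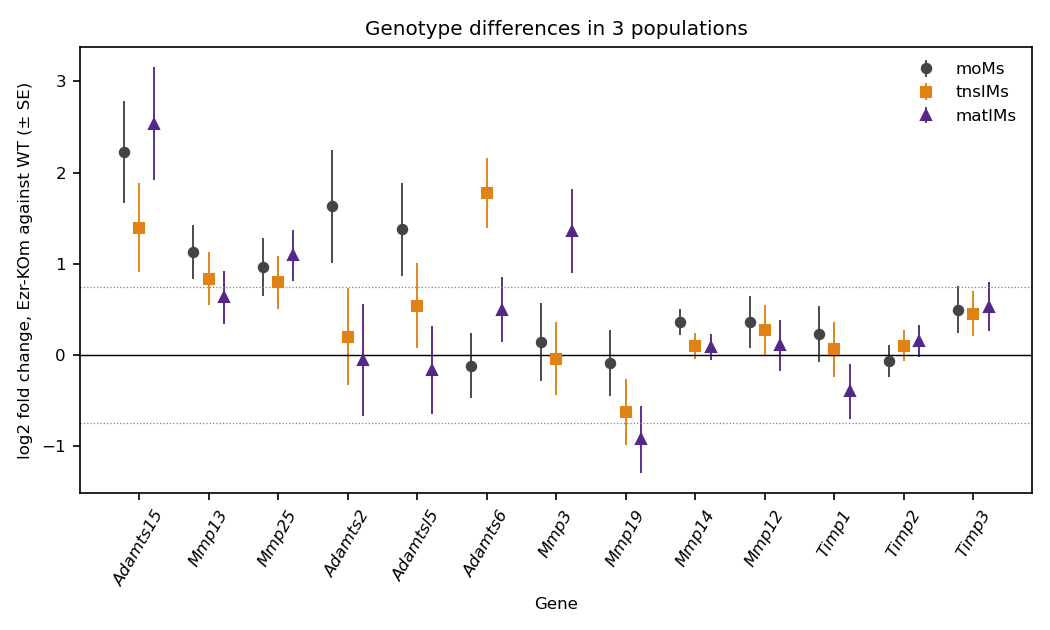
Log2 fold change of Ezr-KOm against WT (± SE, 3 libraries per group) for 13 members in moMs, tnsIMs and matIMs, with a solid line at 0 and dotted lines at 0.75 on either side. Adamts15, Mmp13 and Mmp25 lie above 0 in all 3 populations, Adamts2 and Adamtsl5 are raised in moMs alone among the values past the dotted line, and Timp1, Timp2 and Mmp12 lie between the dotted lines.

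Of the 8 members highest per length, Mmp19 alone passed the rule in a population, and of the TIMPs Timp4 alone. Mmp14 had a log2 fold change of 0.36 ± 0.14 in moMs, where the groups did not overlap (487, 443 and 452 CPM in WT and 543, 643 and 589 CPM in Ezr-KOm cells), and 0.09 ± 0.14 and 0.09 ± 0.14 in tnsIMs and matIMs. Mmp12 overlapped between the genotypes in every population. Timp3 was higher by 0.50 ± 0.26, 0.45 ± 0.25 and 0.53 ± 0.27 in the 3 populations, each short of the rule. Timp1 differed by 0.23 ± 0.30, 0.06 ± 0.30 and -0.40 ± 0.30, and Timp2 by -0.06 ± 0.17, 0.10 ± 0.17 and 0.15 ± 0.17. Adam17 and Adam10 stayed within 0.15 of 0 in size. Of the pathway genes, Tspan33 was higher in Ezr-KOm moMs, at 6.39, 3.55 and 6.21 against 1.99, 1.95 and 2.64 CPM (log2 fold change 1.28 ± 0.25, adjusted p = 0.0469), the only one of 51 tested pathway genes with an adjusted p under 0.05 in a genotype comparison.

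Interaction terms of the model compared the genotype differences of the 3 populations with each other. No member and no other gene passed an adjusted p of 0.05 with edgeR. At an unadjusted p under 0.05 there was 1 member for tnsIMs against moMs (Adamts6), 3 for matIMs against tnsIMs (Adamts6, Mmp3 and Timp4) and 2 for matIMs against moMs (Adamtsl5 and Timp4). The shares of all genes at that p are not given here, so these counts are not read as differences between populations. The 3 populations came from 3 mice per genotype, so a difference seen in several of them is not a count of independent animals.

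The 16 untested members had between 5 and 19 counts in their highest library. They were Adam1a, Adam2, Adam3, Adam4, Adam12, Adam21, Adam28, Adam32, Adamts3, Adamts5, Adamts17, Adamtsl1, Mmp20, Mmp21, Mmp24 and Mmp27, several of which are known from testis, tooth or brain. Adam4 reached the 19 counts in the deepest library. Without the filter, Adam28, Mmp21 and Mmp24 in moMs, Mmp24 in tnsIMs and Mmp27 in matIMs passed the study's genotype rule, and none passed the adjusted p. Several named members overlap another gene on the opposite strand, among them Timp1 (Syn1), Timp3 (Syn3), Timp4 (Syn2), Adamts7 (Tbc1d2b), Mmp11 (Chchd10), Mmp19 (Tmem198b) and Mmp25 (2 pseudogenes), and the strand setting of the counts is not given in the sources used here.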

How the data were processed

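RNA of sorted mouse lung macrophages (3 populations, 2 genotypes, 3 libraries per group) was amplified with a SMART-Seq v4 kit and sequenced as paired ends. Per the submitters' notes and the study's methods, the authors aligned reads with STAR 2.7.9a to GRCm39 and deposited 1 table of raw gene counts (whole numbers, not normalized). The strand setting of the counts is not given in the sources used here. SMART-Seq v4 amplification has no molecular identifiers, so counts include PCR copies, and floors cover counting error only.

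Here genes were kept by filterByExpr (15811 of 21254), scaled by TMM and fitted in 1 model of 18 libraries with edgeR 4.0.16 (R 4.3.3) and its quasi-likelihood test, with Benjamini-Hochberg adjustment over all tested genes. Genotype calls also followed the study's rule (unadjusted p under 0.05, log2 fold change beyond 0.75). DESeq2 1.42.0 was an alternative. A group with 3 counts or fewer in each library gave a bound on the fold, from 3 counts per library. CPM per kb used exon lengths of Gencode M39.

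The members, gene lists and marker lists were chosen with earlier results of these data known. Values in all libraries were given for members past the study's rule in a genotype comparison, the 5 members with the smallest p in each direction of each population comparison among those called, the members the study's text names, and the TIMPs. Members near Ezr on chromosome 17 or between 130 and 160 Mb on chromosome 4 were named with their genotype values. Replicate numbers paired the libraries: deviations of same-numbered libraries of the 2 genotypes correlated at 0.102 to 0.316 in each population, against at most 0.0508 for different numbers. Between populations of 1 genotype the correlations were 0.0905 to 0.397 for the same number, against at most 0.0316. The main model nevertheless held no replicate term, so its p-values ignore this pairing. Member counts with a replicate block are given below for the genotype comparisons only. On simulated counts of 15362 genes for Ezr-KOm against WT moMs, 98% of 200 genes changed by a log2 fold change of 2 were recovered by edgeR and by DESeq2. Of the calls, 2.49% with edgeR and 7.98% with DESeq2 fell on unchanged genes. The changed genes were drawn from well-counted ones, so recovery of smaller changes or of members with few counts was not measured. The simulated spread followed the trend over genes and held no replicate effect, unlike the real libraries, so these shares hold for such counts only. Alternatives were other scalings, filters, a replicate block, separate fits and leaving out each library. Values of some genes on the lists are not reported here.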

Additional observations from a re-analysis of the deposited data

How the results depend on the processing

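The counts of called members differed between filters and tools. With 10 counts asked for in every library, 12 members differed between WT tnsIMs and moMs, 10 between WT matIMs and tnsIMs, 11 between Ezr-KOm tnsIMs and moMs and 12 between Ezr-KOm matIMs and tnsIMs, and 3, 2 and 3 members passed the study's genotype rule in moMs, tnsIMs and matIMs. Without a filter 8 passed the study's rule in moMs. The number of members tested changed with the filter, so these counts are not shares of 44. Shares of all genes under the settings of this section are not given here, so no excess over all genes is read from them. DESeq2 called 1, 1 and 2 members between genotypes at an adjusted p under 0.05, and the matIM libraries fitted alone called 1. Leaving out 1 library gave 3 to 7, 3 to 6 and 4 to 5 members past the rule, 0 to 0, 0 to 0 and 0 to 1 at the adjusted p, 19 to 24, 21 to 27 and 15 to 19 for the WT population comparisons and 11 to 19, 20 to 27 and 14 to 19 for those of Ezr-KOm cells. The lowest moM count (3), the 1 in matIMs and the 11 came without moM Ezr-KOm replicate 2, the same library, and tnsIM Ezr-KOm replicate 2, respectively.

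With the replicate block, since numbers pair the libraries, 6, 4 and 5 members passed the rule and 0, 0 and 0 the adjusted p. The Mmp3 genotype difference in tnsIMs turned to 0.0313 under the block. Small genotype differences turned sign when 1 library was left out. In moMs the log2 fold changes ran from -0.44 to 0.14 for Adamts6, -0.74 to 0.22 for Mmp19, -0.13 to 0.46 for Mmp3, -0.0406 to 0.49 for Timp1, -0.18 to 0.00661 for Timp2 and -0.16 to 1.16 for Timp4. In tnsIMs they ran from -0.43 to 0.48 for Adamts2, -0.35 to 0.47 for Mmp3, -0.21 to 0.27 for Timp1 and -0.53 to 1.18 for Timp4, and in matIMs from -0.44 to 0.35 for Adamts2, -0.77 to 0.15 for Adamtsl5 and -0.0713 to 0.26 for Mmp12. The cause was not tested. Of the alternatives that kept all libraries, 681 single-gene values kept direction and call, 2 lost the call and 1 turned. Upper-quartile scaling shifted the median of all genes by 0.108 (WT tnsIMs against moMs) and scaling by totals by 0.111 (WT matIMs against moMs) and 0.132 (Ezr-KOm). Members with few counts, such as Adamts15 in WT matIMs, were limited by depth.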
